A study of Mus musculus with 10 samples.

Results

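The glucocorticoid receptors, the enzyme that regenerates their ligand, the classic target genes of the receptor and the metallothioneins were followed in the hippocampus of old mice on 2 diets. The rule named 10 genes and took every probe set, short oligonucleotides against the same transcript, that the platform annotation gives to only one of them. It found 1 probe set for each of 9 genes, out of 12422 probe sets without controls and 8251 named genes. Nr3c2, the mineralocorticoid receptor, had no such probe set and was dropped. RNA came from whole hippocampus of male C57BL/6 mice aged 30 months, of which 5 were calorie restricted over the long term and 5 were fed a control diet, with 1 mouse on each of 10 arrays. The labels used here do not give the degree of restriction or the age at which it began. Of 12 genes of hippocampal and other neurons with a probe set, a list drawn up with these data known, 11 were bright enough to test, and Prox1 of dentate granule cells was not. Brightness was judged by the mean log2 signal over the 10 arrays, and the dimmest 40% of probe sets were left out of the test.

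Glucocorticoids enter cells and bind the glucocorticoid receptor, which is held ready by Hsp90 chaperones, moves to the nucleus and binds DNA at glucocorticoid response elements. Fkbp5, Sgk1 and Tsc22d3 are textbook genes switched on by it. In the hippocampus, glucocorticoid and mineralocorticoid receptors take part in the feedback that limits the stress hormone axis. Metallothioneins are small cysteine-rich proteins that bind zinc and copper, and Mt1 and Mt2 are induced by metals, oxidative stress and glucocorticoids.

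Among the 9 genes, the metallothionein Mt2 was higher and the phagocytic receptor Mertk was lower in calorie restricted mice, 1.75-fold and 1.72-fold relative to the median probe set. The signal of Nr3c1, the glucocorticoid receptor, was also below every control array on all 5 calorie restricted arrays, but it was too dim to be tested in the main comparison. The other 6 genes did not pass the test or were not tested. In limma, 7 genes were tested, of which 1 was higher, 1 was lower and 5 did not pass, while 2 lay below the signal filter. Over all 7453 probe sets tested, 306 were called higher, or 4.11%, and 577 lower, or 7.74%, so 1 call each way among 7 genes is not far from the background. The 2 diets did not overlap in 3 of the 9 genes, against 10.5% of all 12422 probe sets. Over the 9 genes the median change was 0.35 on the log2 scale, with 5 above and 4 below 0. Except where stated, a change below is the log2 signal of restricted mice less that of control mice, from which the median over the tested probe sets, -0.15, was subtracted. In each other fit the median of that fit was subtracted, which was -0.22 without a signal filter. The limma p-values test the change before that subtraction, and passing means an adjusted p (Benjamini-Hochberg, over every tested probe set) under 0.05. With each array centred on its own median the split was 575 higher to 266 lower, and Mt2 and Mertk passed there too.

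**Figure D1:**
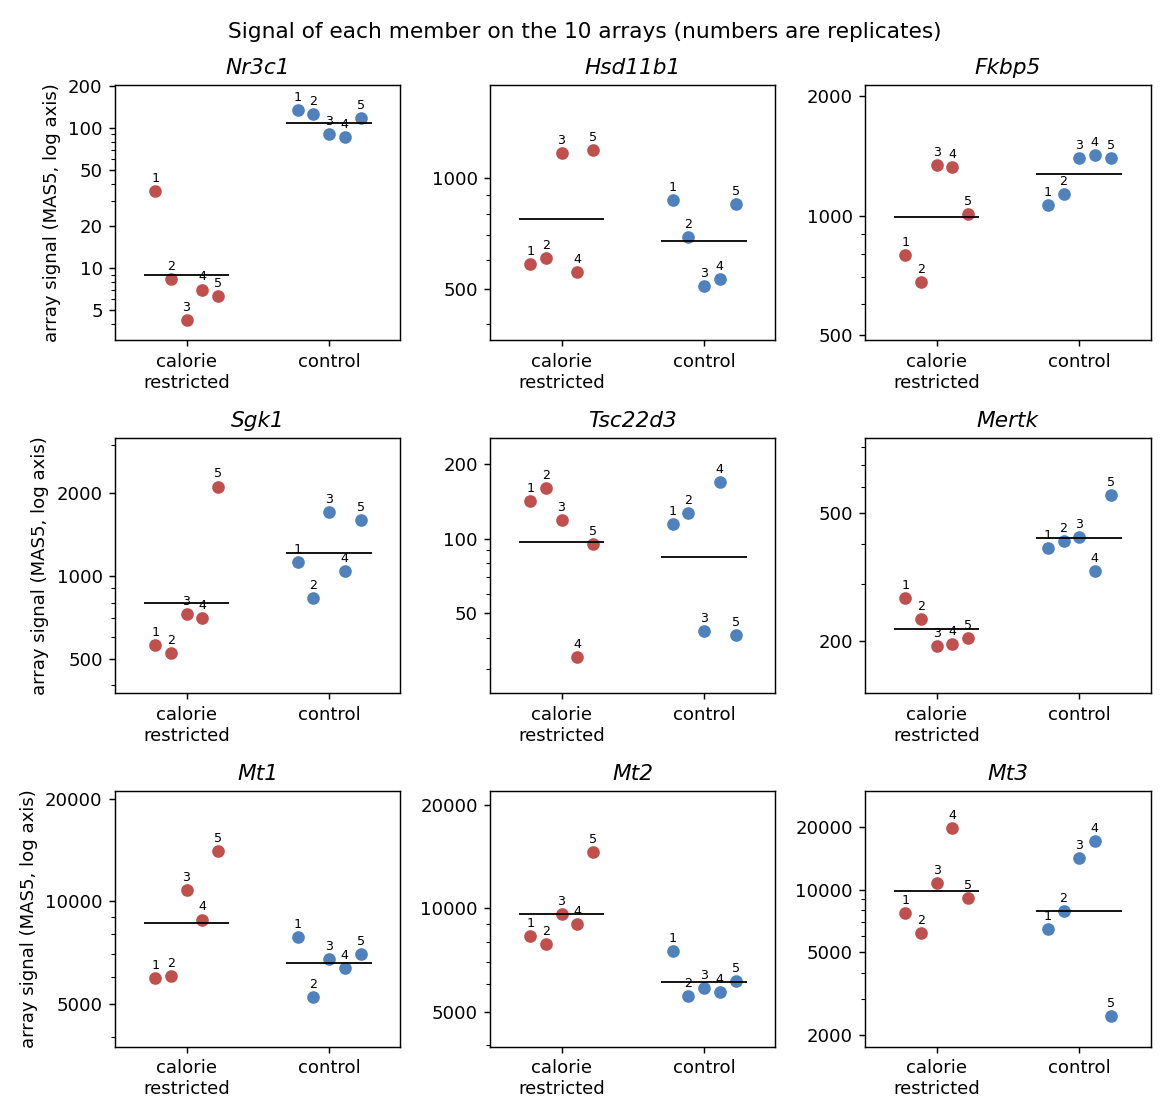
Array signal (MAS5, log axis) of each of the 9 genes in 5 calorie restricted mice, on the left of each panel, and 5 control mice, on the right; points are single mice with their replicate number and bars are the means of the log2 signals. The diets do not overlap for Nr3c1, Mertk and Mt2, and calorie restricted replicate 5 stands above the other restricted mice for Sgk1.

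RNA quality differed between the diets and stands beside every value here. The log2 difference between 3' and 5' control probe sets of Gapdh and Actb, which grows as RNA breaks down, came to 0.79, 0.78, 5.20, 1.52 and 6.11 for restricted mice 1 to 5, and lay between -0.12 and 0.45 for the controls. It averaged 2.88 ± 2.57 in the restricted mice, against 0.16 ± 0.24 for the controls (n = 5 each, SD; exact two-sided permutation p = 0.00794, the smallest it can give, and the same after adjustment over 3 measures). Bacterial transcripts spiked into each sample had an average log2 signal of 13.05 ± 0.47 in restricted against 11.12 ± 0.56 in control mice, without overlap. The third measure, the median log2 signal of an array, averaged 7.49 ± 0.18 in restricted against 7.84 ± 0.05 in control mice (exact permutation p = 0.00794). The part of RNA quality and spike-in signal in the results was not tested. For the 9 genes, values without calorie restricted replicates 3 and 5, or with an RNA quality covariate, are given where they change a result. For single genes outside the 9, such values were not taken. In bulk tissue, fewer cells of a type and less RNA per cell cannot be told apart.

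Nr3c1 encodes the glucocorticoid receptor, the transcription factor on which the other genes were chosen. Its signal was 35.4, 8.38, 4.28, 7.04 and 6.32 in calorie restricted replicates 1 to 5, against 135, 125, 90.3, 86.7 and 118 in control replicates 1 to 5. Every calorie restricted array lay below the lowest control array. Replicates 1 and 2 had a 3' to 5' difference nearest to the control range but above it. Their spike-in signals, 13.28 and 13.67, were the highest of all arrays. On the log2 scale it averaged 3.16 ± 1.17 in the restricted mice, against 6.77 ± 0.29 for the controls (n = 5 each, SD). Both lay under 6.85, the lowest mean log2 signal that was tested. In the fit without a signal filter, Nr3c1 had a relative change of -3.39 ± 0.56 (SE) with a limma adjusted p of 0.00771 over 12422 probe sets, of which 4.27% passed as lower. The size of this change depended on how low signals were handled. It was -2.08 when 16 was added to each signal and -1.09 when 64 was added, with limma adjusted p of 0.00514 and 0.00353. The probe sets below the filter had a median log2 change of -0.36 before any median was subtracted, against -3.62 for Nr3c1 on that scale. Nr3c1 passed without calorie restricted replicates 3 and 5, at -2.94 (limma adjusted p = 0.0203), whereas the RNA quality covariate gave -2.75, which missed the threshold (limma adjusted p = 0.0584). These fits were added with the values known.

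Hsd11b1 encodes the enzyme that turns inactive 11-keto steroids back into active glucocorticoid inside the cell. It had signals of 585, 607, 1166, 555 and 1192 in calorie restricted replicates 1 to 5, against 870, 691, 507, 532 and 849 in control replicates 1 to 5. The 2 highest values were those of calorie restricted replicates 3 and 5, and the other 3 restricted mice lay within the control range. The change was 0.35 ± 0.28 (SE; limma adjusted p = 0.645). It turned to -0.11 without replicates 3 and 5 (limma adjusted p = 0.545) and to -0.32 under the RNA quality covariate (adjusted p = 0.290).

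Fkbp5 encodes a co-chaperone that lowers the affinity of the receptor for its ligand and is itself induced by the receptor. Its signal was 797, 681, 1340, 1325 and 1008 in calorie restricted replicates 1 to 5, against 1061, 1133, 1396, 1419 and 1397 in control replicates 1 to 5. Replicates 1, 2 and 5 of the restricted mice lay below every control array, and replicates 3 and 4 lay within the control range. The change, -0.20 ± 0.22 (SE), missed the threshold (limma adjusted p = 0.276). It stayed below 0 in all 25 other settings that measured it, from -0.49 to -0.058, and passed in none. Settings that altered only the array centring, variance model, replicate block or threshold left it at -0.20 and could not turn its sign.

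Sgk1 encodes a kinase that is induced by glucocorticoids and mineralocorticoids and that regulates ion channels and transporters. It had signals of 561, 523, 730, 702 and 2114 in calorie restricted replicates 1 to 5, against 1121, 829, 1705, 1042 and 1598 in control replicates 1 to 5. Of the 5 calorie restricted mice, 4 lay below every control mouse and replicate 5 lay above all of them. The change was -0.46 ± 0.36 (SE) and did not pass on all arrays (limma adjusted p = 0.261). The call turned on 1 array: without calorie restricted replicate 5 the change was -0.84 and passed (adjusted p = 0.0213). Leaving out replicates 3 and 5 gave -0.94, which passed (limma adjusted p = 0.0229), and the RNA quality covariate gave -1.21, which passed too (adjusted p = 0.0463). Replicate 5 had the largest 3' to 5' difference of the 10 arrays.

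The promoter windows of Sgk1 are of interest because 1 of them holds a full inverted repeat of the receptor's element. RefSeq windows run from 250 bases before to 50 bases after a transcription start on build GRCm38.p6, and Sgk1 has 6 of them. The window at chr10:21993640-21993939 on the + strand is printed 5' to 3', with its response element in capitals. The pattern searched, on both strands, was GNACA, any 3 bases and TGTNC.
Sgk1 promoter: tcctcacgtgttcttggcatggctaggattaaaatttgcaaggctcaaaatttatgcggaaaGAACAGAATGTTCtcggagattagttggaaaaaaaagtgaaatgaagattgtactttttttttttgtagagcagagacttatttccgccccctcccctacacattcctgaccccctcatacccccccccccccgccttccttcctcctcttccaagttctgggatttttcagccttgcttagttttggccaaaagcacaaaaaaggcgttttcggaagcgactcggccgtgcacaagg
The match begins at position -188 relative to the start site. It also meets the stricter pattern of AGAACA, any 3 bases and TGTTCT. The looser motif occurs in 0.475% of 32851 windows of the same length, and the stricter in 3 windows. No other window of Sgk1, and none of those of Hsd11b1, Fkbp5, Tsc22d3 or Mertk, held the looser motif. A match is a string of letters, and no binding was measured.

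Tsc22d3 encodes GILZ, a leucine zipper protein that mediates part of the anti-inflammatory action of glucocorticoids. Its signal was 142, 160, 119, 33.4 and 95.2 in calorie restricted replicates 1 to 5, against 114, 126, 42.5, 169 and 41.1 in control replicates 1 to 5. The diets overlapped over most of their range. Its mean lay below the signal filter, so it was not tested in the main comparison. Without a filter the change was 0.43 ± 0.55 (SE; limma adjusted p = 0.848).

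Mertk encodes a receptor tyrosine kinase through which microglia, astrocytes and macrophages take up dying cells and synapses, and glucocorticoids induce it in macrophages. Its signal was 272, 234, 192, 195 and 204 in calorie restricted replicates 1 to 5, against 388, 407, 419, 329 and 567 in control replicates 1 to 5. The highest restricted mouse lay below the lowest control mouse. The change was -0.78 ± 0.21 (SE; limma adjusted p = 0.0197). Without replicates 3 and 5 it was -0.74 and passed (adjusted p = 0.0387). The RNA quality covariate gave -0.72, which missed the threshold (limma adjusted p = 0.0914), as did the fits without control replicate 2 or 3, at -0.79 and -0.77 (adjusted p = 0.0534 and 0.0508). Under quantile normalization it was -0.61 (limma adjusted p = 0.0712).

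Markers of microglia and astrocytes, which carry Mertk, did not all go one way. Over all 5695 genes tested, each on its brightest probe set, limma called 4.09% higher and 6.44% lower. Of 7 tested microglial markers 0 were higher and 2 were lower, the fractalkine receptor Cx3cr1 and the lysosomal Cd68, with changes of -0.95 and -0.71. The other 5 did not pass and ran from -2.10 for C1qa, a complement subunit, to 1.31 for Aif1, an actin-binding protein of microglia, whose diets did not overlap (limma adjusted p = 0.0520). The summed microglial signal ran from 3796 to 6478 in calorie restricted and from 5415 to 7657 in control mice. Of 9 astrocyte markers 0 were higher and 4 were lower, Aqp4, Atp1b2, Fgfr3 and Slc4a4, and the other 5 ran from -0.17 for Gfap to 0.89 for Gja1. The summed astrocyte signal was higher, narrowly without overlap, at 22870 to 29139 in calorie restricted against 17389 to 22832 in control mice. This sum weighs bright markers most, and the brightest, Aldoc and Gja1, at 0.56 and 0.89, did not pass. The Gja1 probe set may match several transcripts. Among other cell types, limma called 3 of 7 neuronal markers lower, Syt1, Map2 and Nefl, at -3.40, -2.83 and -1.01. In the same list it called 1 higher, Thy1, at 0.79. It called 3 of 7 oligodendrocyte and 2 of 5 choroid plexus and ependymal markers lower and none higher. Of 5 endothelial and 6 meningeal and fibroblast markers none passed either way. None of these markers was at the lowest value of 1 on any array, and their part in the result was not tested.

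**Figure D2:**
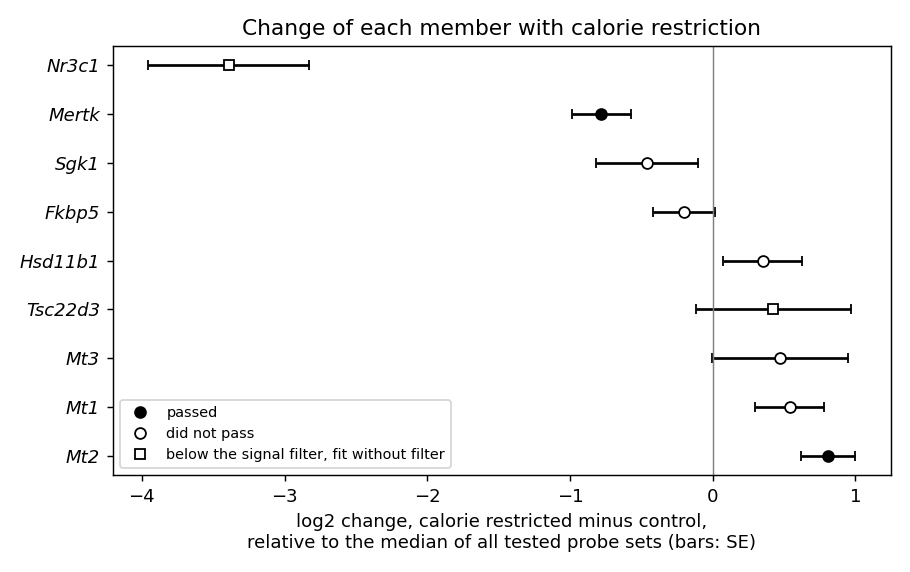
Log2 change of each gene, calorie restricted minus control, relative to the median of all probe sets in the same fit; bars are standard errors from limma, n = 5 per diet. Filled circles passed, open circles did not, and squares are the 2 genes below the signal filter, taken from the fit without it; Nr3c1 lies at -3.39, a size that rests on signals below the filter and is -1.09 when 64 is added to each signal.

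The metallothionein genes include an inducible pair, Mt1 and Mt2, and the brain form Mt3, a growth inhibitory factor of neurons and astrocytes. Their genes lie side by side on mouse chromosome 8. The promoters of all 3 are shown because Mt1 and Mt2 had their 3 highest signals on the same arrays in the same order. Metal response elements have the core TGCACNC or TGCGCNC, and matches on either strand are in capitals. The windows are chr8:94178839-94179138 for Mt1, chr8:94172368-94172667 for Mt2 and chr8:94152357-94152656 for Mt3, all on the + strand of GRCm38.p6, from RefSeq and printed 5' to 3'.
Mt1 promoter: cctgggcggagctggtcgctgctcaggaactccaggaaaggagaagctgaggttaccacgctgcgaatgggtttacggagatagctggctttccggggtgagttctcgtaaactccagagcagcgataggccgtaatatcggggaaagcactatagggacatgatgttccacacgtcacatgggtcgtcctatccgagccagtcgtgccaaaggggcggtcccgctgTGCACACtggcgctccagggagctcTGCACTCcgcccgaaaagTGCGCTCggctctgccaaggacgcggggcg
Mt2 promoter: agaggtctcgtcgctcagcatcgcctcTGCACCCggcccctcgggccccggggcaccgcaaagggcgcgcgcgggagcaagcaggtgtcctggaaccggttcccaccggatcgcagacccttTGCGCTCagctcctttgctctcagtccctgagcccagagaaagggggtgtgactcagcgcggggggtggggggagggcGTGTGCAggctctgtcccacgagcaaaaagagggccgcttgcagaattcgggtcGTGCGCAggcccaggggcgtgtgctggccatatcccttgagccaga
Mt3 promoter: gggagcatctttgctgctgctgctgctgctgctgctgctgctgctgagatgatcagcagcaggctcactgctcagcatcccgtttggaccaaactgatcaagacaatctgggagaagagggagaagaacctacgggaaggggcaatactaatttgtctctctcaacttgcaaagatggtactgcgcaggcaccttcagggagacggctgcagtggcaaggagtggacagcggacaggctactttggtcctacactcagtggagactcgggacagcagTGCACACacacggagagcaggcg
The core occurred 3 times in the Mt1 window, 4 times in that of Mt2 and 1 time in that of Mt3. Over all 32851 windows, 25.7% held at least 1 core, 1.97% held 3 or more and 0.517% held 4 or more. The Mt1 window also held 1 glucocorticoid response element by the looser pattern, in lower case above, which begins at position -94 and overlaps no metal element. The windows of Mt2 and Mt3 held none.

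Mt2 had signals of 8326, 7895, 9647, 9029 and 14625 in calorie restricted replicates 1 to 5, against 7512, 5538, 5873, 5704 and 6161 in control replicates 1 to 5. Every restricted mouse lay above every control mouse, although replicate 2 exceeded control replicate 1 by little. The change was 0.81 ± 0.19 (SE) and passed narrowly (limma adjusted p = 0.0433). It held that call in 3 of 10 fits with 1 array left out, those without calorie restricted replicate 1, 2 or 5. In the other 7 the adjusted p was at most 0.0994, without control replicate 2. Over all 10 the change stayed between 0.63 and 0.89. It was 0.56 without calorie restricted replicates 3 and 5 (limma adjusted p = 0.0549), 0.43 under the RNA quality covariate (adjusted p = 0.281) and 0.27 under quantile normalization (adjusted p = 0.273).

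Mt1 had signals of 5964, 6022, 10835, 8847 and 14034 in calorie restricted replicates 1 to 5, against 7883, 5247, 6796, 6377 and 7030 in control replicates 1 to 5. Replicates 3, 4 and 5 of the restricted mice lay above every control mouse, and replicates 1 and 2 lay within the control range. A change of 0.54 ± 0.24 (SE) missed the threshold (limma adjusted p = 0.290). Replicates 5, 3 and 4, in this order, had the highest Mt1 and the highest Mt2 signal, and the largest 3' to 5' difference. Without replicates 3 and 5 the Mt1 change was 0.15 (limma adjusted p = 0.885), and under the RNA quality covariate it was -0.050 (adjusted p = 0.702).

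Mt3 had signals of 7743, 6187, 10821, 19775 and 9136 in calorie restricted replicates 1 to 5, against 6469, 7926, 14176, 17159 and 2475 in control replicates 1 to 5. Both diets spanned a wide range, and control replicate 5 was the lowest of all. The change was 0.47 ± 0.47 (SE; limma adjusted p = 0.664), and it was -0.046 under quantile normalization (adjusted p = 0.942). 

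**Figure D3:**
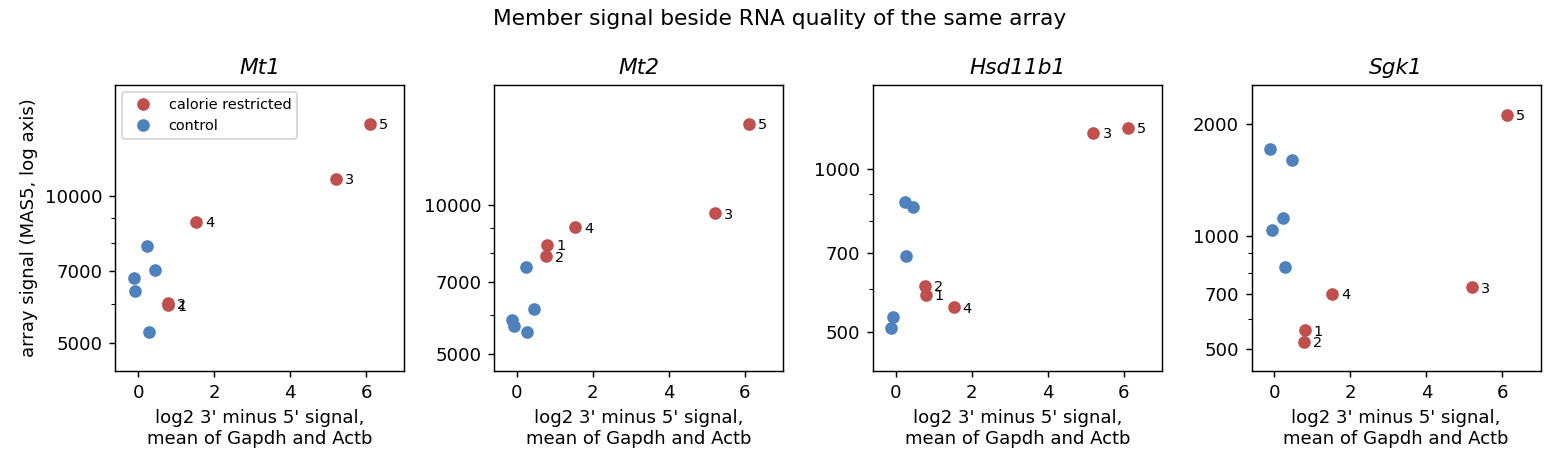
Array signal (MAS5, log axis) of Mt1, Mt2, Hsd11b1 and Sgk1 against the log2 3' minus 5' difference of the same array, averaged over Gapdh and Actb; points are mice and numbers are calorie restricted replicates. Calorie restricted replicates 5 and 3, at 6.11 and 5.20, have the highest Mt1, Mt2 and Hsd11b1 signals. Among the restricted mice Sgk1 is high in replicate 5 alone, and the other 4 lie below every control mouse.

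Other genes of the pathway came from 6 lists, whose counts stand against 4.09% of all tested genes called higher and 6.44% called lower. Among 8 tested chaperones and cofactors of the receptor, 0 were higher and 2 were lower, both coregulators that bind it. Ncoa1, the coactivator SRC-1, had 307, 414, 173, 326 and 358 in calorie restricted mice, against 690, 737, 776, 690 and 633 in control mice. Its change was -1.06 ± 0.23 (SE; limma adjusted p = 0.0116). Nrip1, the corepressor RIP140, changed by -1.05 ± 0.28 (SE; limma adjusted p = 0.0225). The diets did not overlap for either, nor for Stip1, at -1.15, and Fkbp4, at 0.60, which did not pass. Over all 12422 probe sets 10.5% did not overlap. The list's median was 0.23, against 0.034 over all 5695 genes tested. In limma 0 of 5 genes of steroid metabolism passed, with a median of -0.058 and 1 at an unadjusted p under 0.05. Likewise 0 of 6 Sgk1 substrates and effectors passed, with a median of 0.0021 and 2 at an unadjusted p under 0.05. Among the 8 chaperones and cofactors 5 genes had an unadjusted limma p under 0.05. Over all 7453 tested probe sets 2352 had one, so such counts in short lists are not set apart here.

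Of 15 other glucocorticoid-induced genes, 2 were higher, 0 were lower and 13 did not pass, with a median of -0.018. Glul, the glutamine synthetase of astrocytes, had 3732, 2653, 5664, 3738 and 3656 in calorie restricted mice, against 777, 650, 1029, 2085 and 1088 in control mice. Its change was 2.02 ± 0.30 (SE; limma adjusted p = 0.00662), but its other probe set passed in the opposite direction, at -0.53 ± 0.17 (adjusted p = 0.0254). Gadd45b, a stress sensor that acts on MAP kinase signalling, changed by 1.32 ± 0.24 (SE; limma adjusted p = 0.0150) on a probe set that may match several transcripts. For its other probe set the value was 0.61 ± 0.34 (SE; limma adjusted p = 0.373). Classical targets of the receptor in this list, among them the clock gene Per1, the transcription factor Klf9 and the phosphatase Dusp1, had changes of 0.0098, -0.080 and 0.39 and did not pass.

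Of 14 genes of metal and zinc handling, 1 was higher, Sod1, the copper and zinc superoxide dismutase, at 2.18 ± 0.22 (SE; limma adjusted p = 0.00132), and 13 did not pass. Mtf1, the zinc sensor that binds metal response elements, was at 0.14 ± 0.32 (SE; limma adjusted p = 0.977). Slc30a3, the zinc transporter of synaptic vesicles, was at -0.14 ± 0.19 (SE; limma adjusted p = 0.298). Over these 14 genes the median was 0.19. Of 8 relatives and ligands of Mertk and other phagocytosis genes, 1 was higher, the integrin subunit Itgav, at 1.31 ± 0.20 (SE; limma adjusted p = 0.00843), on a probe set that may match several transcripts. Of its other probe sets, 1 was at 0.52 ± 0.28 (SE; limma adjusted p = 0.382) and 1, below the filter, was at -0.32 and not tested. The ligands of Mertk, Gas6 and Pros1, had 0.18 and 0.24, and its relative Tyro3 had 0.093, none of which passed. The list's median was -0.065.

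The genes with the pattern most like each called gene were found by the root mean square difference of signals scaled to an SD of 1 over the 10 arrays, among 5694 genes, or 5695 for Nr3c1. For Nr3c1 the nearest were Ppp3cb, a calcineurin catalytic subunit, Hivep2 and Btbd3, at 0.159, 0.173 and 0.229. For Mertk they were Mknk1, a kinase downstream of MAP kinases, Ap1g1, an adaptor of vesicle traffic, and Ppp3cb, at 0.277, 0.299 and 0.316. For Mt2 they were Ndufb5, a subunit of complex I, Faap20 and Clu, which encodes clusterin, at 0.194, 0.203 and 0.228, all on probe sets that may match several transcripts. Mt1 ranked only 344 in likeness to Mt2, at 0.527, a comparison made after its values were seen. Nr3c1 and Mertk were 0.347 apart, the smallest distance between any 2 of the 9 genes. They were also the only 2 of these genes lower without overlap, and the distance includes that difference between the diets. All the other distances include it too. Each gene listed as nearest to Nr3c1, Mertk or Mt2 passed in limma in the same direction, without overlap of the diets.

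**Figure D4:**
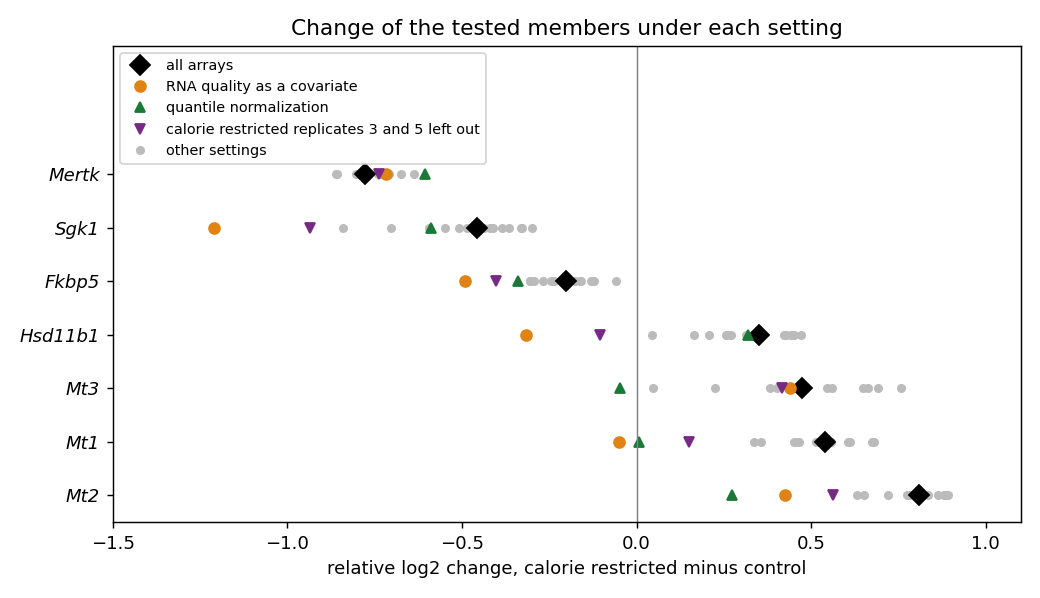
Relative log2 change, calorie restricted minus control, of the 7 tested genes on all arrays (diamonds) and under each other setting (smaller points). Mertk stays between -0.86 and -0.61, Mt2 between 0.27 and 0.89 and Sgk1 below 0, while Hsd11b1, Mt1 and Mt3 reach both sides of 0.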

How the data were processed

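Hippocampal RNA of 5 calorie restricted and 5 control mice was measured on 1 array each, and replicates are separate mice. The deposited values are array intensity on a linear scale. MAS5 is the tool that the submitters' processing notes name; neither its version and settings nor the probe sets' genome build is stated in the labels or files. Intensities under 1 (41 values) were set to 1 and taken to log2, and 66 control probe sets were kept only for quality. The 40% of probe sets with the lowest average log2 value were not tested, which left 7453 of 12422. The diets were tested against each other with limma 3.58.1 in R 4.3.3 (lmFit, eBayes with a trend, no covariate), with Benjamini-Hochberg adjustment over all tested. Gene names came from the platform annotation, updated through RefSeq, where 10833 probe sets had 1 symbol, 396 several and 1193 none. For genes of the lists, the tested probe set with the highest mean was used. Named were every gene of the rule, each listed gene that passed, and the 3 genes most like Nr3c1 and each called gene; genes of the lists that did not pass, and the rank of Mt1, were added after their values were seen. The genes and lists were chosen with earlier results of these data known. Array measures were compared with an exact permutation test over 252 splits. The number of arrays limits the precision, and depth has no meaning for arrays. The fit was tested on simulated data. Alternatives changed normalization, filter, offset, variance model, array weights, an RNA quality covariate, a replicate block, the threshold, and left out arrays.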

Additional observations from a re-analysis of the deposited data

Results flagged for a closer look

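The Sgk1 signal of calorie restricted replicate 5 was far from the other 4 restricted mice: on the log2 scale it was 11.05, and the nearest of them had 9.51. The gap was 0.762 of the range of the 5 mice, above Dixon's critical value of 0.71. Of 24 groups of values checked, this was the 1 that stood apart, and chance alone picks about 1 in 20.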

How the results depend on the processing

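On all arrays 306 probe sets were higher and 577 lower, and 1 of each among the members. The balance of directions followed the scaling: 575 were higher and 266 lower with each array centred on its median, where Mt2 and Mertk passed (limma adjusted p = 0.0269 and 0.0419), and 279 were lower under quantile normalization, where 0 members passed either way (322 probe sets were higher). With RNA quality as a covariate 155 were higher and 178 lower, and 0 members were higher; the 1 lower member was Sgk1. With a replicate block 195 were higher and 345 lower, and 0 members were higher. Same-numbered arrays correlated between -0.08 and 0.17, and 1 calorie restricted array correlated best with its own number. No pairing by number was seen, but these values cannot exclude one. At an adjusted p under 0.1, 572 were higher and 1055 lower; under 0.01, 33 were higher and 39 lower, with 0 members either way. With a filter at the 60th percentile 378 were lower and 0 members were, since Mertk fell below that filter and was not tested. Without a filter 0 members were higher and 2 lower, Nr3c1 and Mertk; 0 were higher with the variance untrended; and 0 were higher and 2 lower, Mertk and Sgk1, without calorie restricted replicates 3 and 5. Leaving out 1 array gave 110 to 412 higher and 143 to 839 lower, with 0 to 1 members higher and 0 to 2 lower; the fewest came without control replicate 2. The 3' to 5' difference then ran from 1.92 to 3.25 (exact permutation p from 0.00794 to 0.0635). Signs turned for Hsd11b1, at -0.11 without replicates 3 and 5 and -0.32 with the RNA quality covariate, for Mt1, at -0.050 with that covariate, and for Mt3, at -0.046 under quantile normalization; the cause was not tested. Nr3c1 passed in 16 of the 17 fits without a filter, of which 16 were added after the data were seen, and Tsc22d3 in 0.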
